A study of Rattus norvegicus with 7 samples.

Results

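The genes described here are 9 interferon-stimulated genes and interferon regulators: the antiviral effectors Mx1, Mx2, Ifit2, Ifit3 and Isg15, and the transcription factors Stat2, Irf9, Irf7 and Irf1. They were chosen by symbol, and every one of the 9 was found on the array through the RefSeq transcript accession of its probes, among 15443 genes named in this way. Of the 9, 8 had a probe that gave a signal well above background on at least 3 of the 7 arrays and could be tested. They were tested among 19991 genes and unnamed probes.

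Gene expression was measured in the whole cerebellum of 7 female Wistar rat pups aged 21 days, with 1 single-colour Agilent array for each pup. The 3 MDD pups (methyl donor deficiency) were born to dams whose food lacked folate and vitamin B12 and held less choline. The 4 CTRL pups were born to dams on a standard diet. Both diets began a month before pregnancy and lasted until weaning, so the pups met the diet in the womb, through milk and as they began to eat. The labels name no dam or litter, so pups of a group may be littermates, and p-values measure the spread between these pups only.

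Folate, vitamin B12 and choline feed the cycle that supplies methyl groups for DNA, RNA and protein methylation. Type I interferons bind a receptor made of IFNAR1 and IFNAR2, whose kinases JAK1 and TYK2 phosphorylate STAT proteins. STAT2 and IRF9 are subunits of the complex ISGF3 that then forms and binds the interferon-stimulated response element (ISRE) in the promoters of its target genes. Interferon gamma acts through a separate receptor, and the STAT dimers it activates bind the gamma-activated site (GAS). In the brain, microglia, astrocytes, endothelial cells and neurons can all respond to interferons, and a low level of these transcripts is present without infection.

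Letter matches to the elements that the pathway acts through were found in the promoters of 4 of the genes. RefSeq promoter windows (assembly GRCr8, 250 bases before to 50 after the start of the gene) were at hand for 6 of the 9 genes: Mx1, Ifit3, Irf1, Irf7, Irf9 and Stat2. The windows were searched on both strands for the ISRE core, GAAA, any 2 bases and GAAA again, and for the GAS core TTCNNNGAA, where N is any base. The ISRE core was in the windows of Ifit3 and Irf7, and the GAS core in those of Irf1 and Irf9. Neither core was in the windows of Mx1 and Stat2. Each match is given in capitals with 25 bases on either side, read 5′ to 3′ on the strand of the gene. In Ifit3 (chr1:241527257-241527316, plus strand) the match ran from position -44 to -35 relative to the start of the gene. In Irf7 (chr1:205800058-205800117, minus strand) it ran from -69 to -60. These ISRE cores read as their reverse complement on the strand printed. In Irf1 (chr10:38417768-38417826, plus strand) the GAS core ran from -142 to -134, and in Irf9 (chr15:33065712-33065770, plus strand) from -99 to -91.
Ifit3: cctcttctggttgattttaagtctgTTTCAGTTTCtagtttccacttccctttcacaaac
Irf7: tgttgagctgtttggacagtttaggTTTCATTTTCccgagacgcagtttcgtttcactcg
Irf1: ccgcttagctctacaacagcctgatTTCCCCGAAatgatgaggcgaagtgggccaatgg
Irf9: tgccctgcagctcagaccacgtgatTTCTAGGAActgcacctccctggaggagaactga

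The ISRE core was present in 1312 of all 33469 rat promoter windows (3.92%), and the GAS core in 2970 (8.87%). Among 61 windows of a wider list of interferon-stimulated genes, 39 held the ISRE core (63.9%) and 13 the GAS core (21.3%). A match is a run of letters and does not show that a factor binds there.

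The 8 tested genes did not move as a block in MDD cerebellum, and Ifit3 was too dim to be tested. Mx1 was lower in MDD pups. Ifit2 was also called lower, but its probe was detected on CTRL arrays only, so the filter on dim probes let it in through the group where it is high and its call is no independent support. None of the other tested genes passed in either direction, and the median log2 difference of the 8 tested genes was 0.03, beside -0.03 over everything tested. With Ifit2 the called genes number 2 of the 8, and nothing is read from this count. At an unadjusted limma p under 0.05 there were 4 of the 8, Mx1, Mx2 and Ifit2 on the lower side and Stat2 on the higher, beside 38.8% of everything tested at that threshold. By the adjusted p, of everything tested, 4081 of 19991 were called (20.4%), of which 1543 were lower in MDD (7.72%) and 2538 higher (12.7%). Groups did not overlap for 3 of the 8 genes, Mx1, Ifit2 and Stat2, or 37.5%, beside 36.5% of all those tested. Here and below a value is the log2 intensity over the 75th percentile of its array, MDD values come in the order of MDD 1, 2 and 3, CTRL values in the order of CTRL 1, 2, 3 and 4, and a gene is called at a limma adjusted p under 0.05. In whole tissue, fewer cells of a type and less RNA per cell cannot be told apart. Levels of different probes are not on a common scale and are not ranked against each other.

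Mx1 (NM_173096) encodes a dynamin-like GTPase that restricts viruses and is strongly induced by type I interferons. Its values were -1.55, -0.84 and -1.42 in MDD pups, against -0.05, -0.77, -0.56 and -0.35 in CTRL pups. Every MDD pup was below every CTRL pup, but MDD 2 lay close under CTRL 2. The processed intensity before scaling showed a wider gap, with 569, 872 and 427 in MDD pups, against 1260.5, 1237, 1262 and 1291 in CTRL pups. It carries the brightness of each array, so the wider gap adds no support. The 75th percentile was 1669, 1562 and 1140 on MDD arrays, against 1305, 2105, 1864 and 1649 on CTRL arrays. Mx1 averaged -1.27 ± 0.38 in MDD pups (SD, n = 3) and -0.43 ± 0.31 in CTRL pups (SD, n = 4), a log2 change of -0.84 (SE 0.22), or 1.79-fold lower, with an adjusted p of 0.0348.

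The Mx1 call did not survive the loss of most single arrays, although the direction held in all 22 alternative settings, between -1.05 and -0.64. Without MDD 1, MDD 3, CTRL 1, CTRL 3 or CTRL 4, taken out one at a time, the adjusted p lay between 0.0673 and 0.0923. It was 0.0147 without MDD 2 and 0.0461 without CTRL 2. Over all alternatives the adjusted p ran from 0.0147 to 0.416, and 10 of 22 passed.

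Mx2 (NM_134350), a paralog of Mx1, encodes a related GTPase. Whether the probes of these paralogs share signal was not tested. Its values were 3.55, 4.13 and 3.32 in MDD pups, against 4.43, 3.99, 3.96 and 4.32 in CTRL pups. MDD 1 and MDD 3 were below all CTRL pups, and MDD 2 lay inside the CTRL range. The difference was -0.51 (SE 0.21), with an adjusted p of 0.117, and it did not pass.

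Among the tested genes, Mx2 was the one whose call depended most on the scaling. With quantile normalization the difference was -0.86 (adjusted p 0.0403), with normexp background correction -0.85 (0.0217) and in the authors' deposited table -0.95 (0.0198, in a limma fit to its columns). Leaving out MDD 2 gave -0.74 (0.0265). Over all 22 alternatives the adjusted p ran from 0.0198 to 0.507, and 4 passed. The 2 Mx genes varied together from array to array, with a Pearson correlation of 0.93 over the 7 arrays, 0.89 after each group was centred on its mean and 0.92 without MDD 1 and CTRL 1. This is a description over 7 arrays that share 1 slide and the same scaling, and Mx2 came at rank 302 of 11957 genes ordered by likeness to Mx1.

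Ifit2 (NM_001024753) encodes an interferon-induced protein with tetratricopeptide repeats that acts on viral RNA and translation. Its signal was dim: the median spot intensity was 56.0, 73.25 and 60.25 in MDD pups, against 86.25, 117, 102.25 and 89.0 in CTRL pups, over local background between 26.0 and 31.75. The probe was well above background on none of the 3 MDD arrays and on all 4 CTRL arrays. It therefore entered the test only through the CTRL group, in which it is higher, and its MDD level was not measured well above background.

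On the log2 scale Ifit2 had -7.15, -6.04 and -6.42 in MDD pups, against -5.65, -5.18, -5.46 and -5.38 in CTRL pups. The groups did not overlap. The fitted difference was -1.12 (SE 0.25, adjusted p 0.0217). With the higher of each array's dimmest detected signal and the probe's own signal taken as the MDD level, the signal was 2.17-fold lower in MDD pups. The probe's own signal was the higher on all 3 MDD arrays, so this value equals the fitted fold. It holds only for this handling of background and is no lower bound, since other handling gave smaller folds.

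The size of the Ifit2 difference rested on how background was handled. It was -0.35, or 1.27-fold, with normexp correction (adjusted p 0.0385) and -0.43, or 1.35-fold, in the authors' deposited table (0.0296, limma fit). Without CTRL 2, CTRL 3 or CTRL 4, one at a time, the adjusted p was between 0.0531 and 0.0619, and it was 0.0513 with no filter on dim probes. Over 21 alternatives the adjusted p ran from 0.00983 to 0.415, and 12 passed.

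Ifit3 (NM_001007694), the partner of Ifit2 in the same protein family, was not well above background on any of the 7 arrays and was not tested. Its values were -8.15, -8.32 and -7.29 in MDD pups, against -7.46, -7.78, -7.43 and -8.49 in CTRL pups. The groups overlapped fully at this signal.

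Isg15 (NM_001106700) encodes a ubiquitin-like protein that is joined to other proteins after interferon exposure. Its values were -4.50, -4.68 and -3.84 in MDD pups, against -3.71, -4.97, -4.78 and -4.91 in CTRL pups. One array of each group stood high, MDD 3 and CTRL 1, and CTRL 1 was the highest of all 7. The difference was 0.25 (SE 0.33, 95% interval -0.51 to 1.01, adjusted p 0.603), and the interval leaves room for changes in either direction. It was 0.55 (adjusted p 0.141) without CTRL 1 and 0.0034 (0.995) without MDD 3, the lowest and the highest adjusted p of its alternatives.

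**Figure D1:**
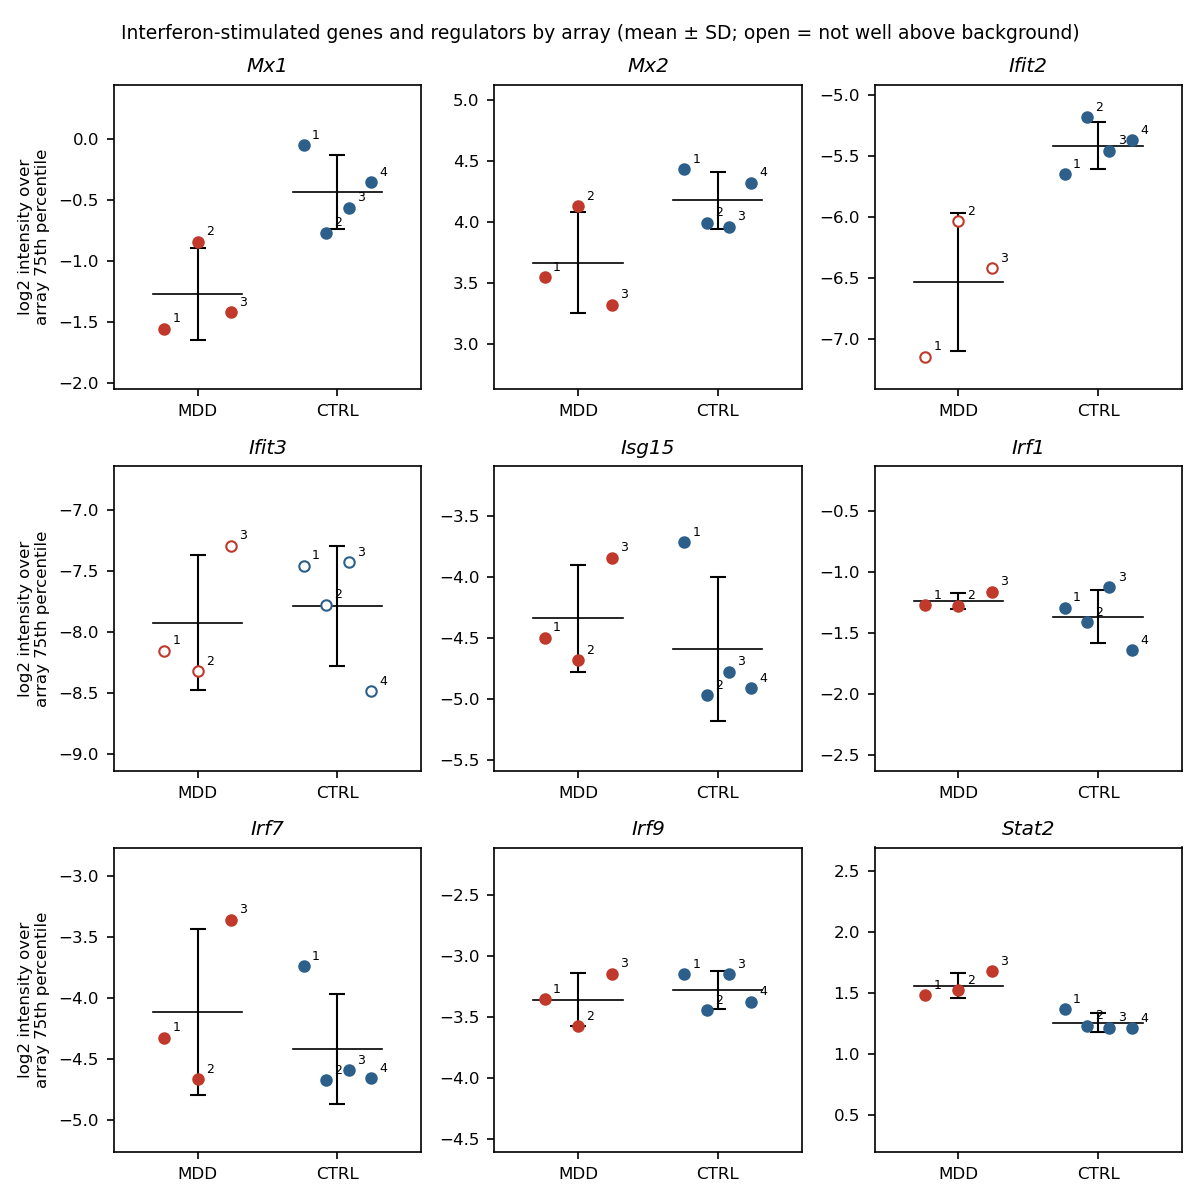
Each panel shows 1 gene, with a point for each array numbered by replicate, and the vertical axis is the log2 intensity over the 75th percentile of the array, over a span of the same size in each panel. Horizontal lines and bars are the mean ± SD of 3 MDD arrays and 4 CTRL arrays, and open points were not well above background. Mx1 and Ifit2 lie lower on all 3 MDD arrays, Stat2 lies between 1.48 and 1.67 on MDD arrays and between 1.21 and 1.37 on CTRL arrays, and CTRL 1 and MDD 3 stand high for Irf7 and Isg15.

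Among the regulators, Stat2 (NM_001011905), the subunit that gives ISGF3 its main activation domain, was the one whose groups did not overlap. Its values were 1.48, 1.52 and 1.67 in MDD pups, against 1.37, 1.23, 1.21 and 1.21 in CTRL pups. All 3 MDD pups lay above all 4 CTRL pups, the opposite side from Mx1 and Ifit2. The difference was 0.30 (SE 0.11, 95% interval 0.04 to 0.56), or 1.23-fold, with an adjusted p of 0.0886, and it did not pass. None of its 22 alternatives passed, with adjusted p between 0.0523 and 0.626. Before scaling, the processed intensities of Stat2 overlapped, with 4652, 4489 and 3639 in MDD pups, against 3371, 4940, 4326 and 3806 in CTRL pups.

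Irf9 (NM_001012041), the DNA-binding subunit of ISGF3, showed no detectable difference. Its values were -3.35, -3.58 and -3.15 in MDD pups, against -3.15, -3.44, -3.15 and -3.38 in CTRL pups. The groups covered nearly the same range, and the difference of -0.08 (SE 0.15, 95% interval -0.42 to 0.26, adjusted p 0.717) changed sign under several settings.

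Irf7 (NM_001033691) amplifies type I interferon production and is itself induced by ISGF3. Its values were -4.33, -4.67 and -3.36 in MDD pups, against -3.74, -4.67, -4.59 and -4.66 in CTRL pups. As with Isg15, MDD 3 and CTRL 1 stood above the other arrays, and the remaining arrays lay together. The difference was 0.30 (SE 0.34, 95% interval -0.48 to 1.08, adjusted p 0.545). It was 0.52 (0.275) without CTRL 1 and -0.08 (0.861) without MDD 3, and over its 22 alternatives the adjusted p ran from 0.258 to 0.861.

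Irf7 and Isg15 had a Pearson correlation of 0.95 over the 7 arrays, 0.94 after each group was centred and 0.82 without MDD 3 and CTRL 1, and Isg15 came at rank 10 of 11957 genes ordered by likeness to Irf7. The correlation of Mx1 with Isg15 was -0.05. These figures describe 7 arrays on 1 slide.

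Irf1 (NM_012591), a factor induced mainly by interferon gamma, had 2 probes whose differences had opposite signs. The brighter probe had -1.27, -1.28 and -1.16 in MDD pups, against -1.29, -1.41, -1.12 and -1.64 in CTRL pups, a difference of 0.13 (SE 0.14, adjusted p 0.531). The dimmer probe, a single spot, had -4.88, -5.00 and -5.53 in MDD pups, against -4.65, -4.57, -4.69 and -4.93 in CTRL pups, a difference of -0.42 (SE 0.18, adjusted p 0.119 in a fit of all 22255 probes, 20.1% of which were called). Neither passed, and both groups overlapped for both probes, so no direction is given for Irf1.

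All 7 arrays came from 1 slide and were scanned together. Going by the array positions in the file headers, the row holding CTRL 1, 2 and 3 held no MDD array, while MDD 1, 2 and 3 shared a row with CTRL 4. Within that row the differences were -0.92 for Mx1, -1.16 for Ifit2, -0.65 for Mx2, 0.35 for Stat2, 0.54 for Irf7 and 0.57 for Isg15. They had the same signs as the whole comparison, which holds the same arrays, so a shared sign is no independent check. Irf1 also kept its sign, at 0.40, while Irf9 changed sign, at 0.02 against -0.08. The fit within the row holds 1 CTRL array, which is assumed to vary like the MDD arrays, so only the sizes are given. Slide row and group largely coincide, so their parts in the differences cannot be told apart.

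**Figure D2:**
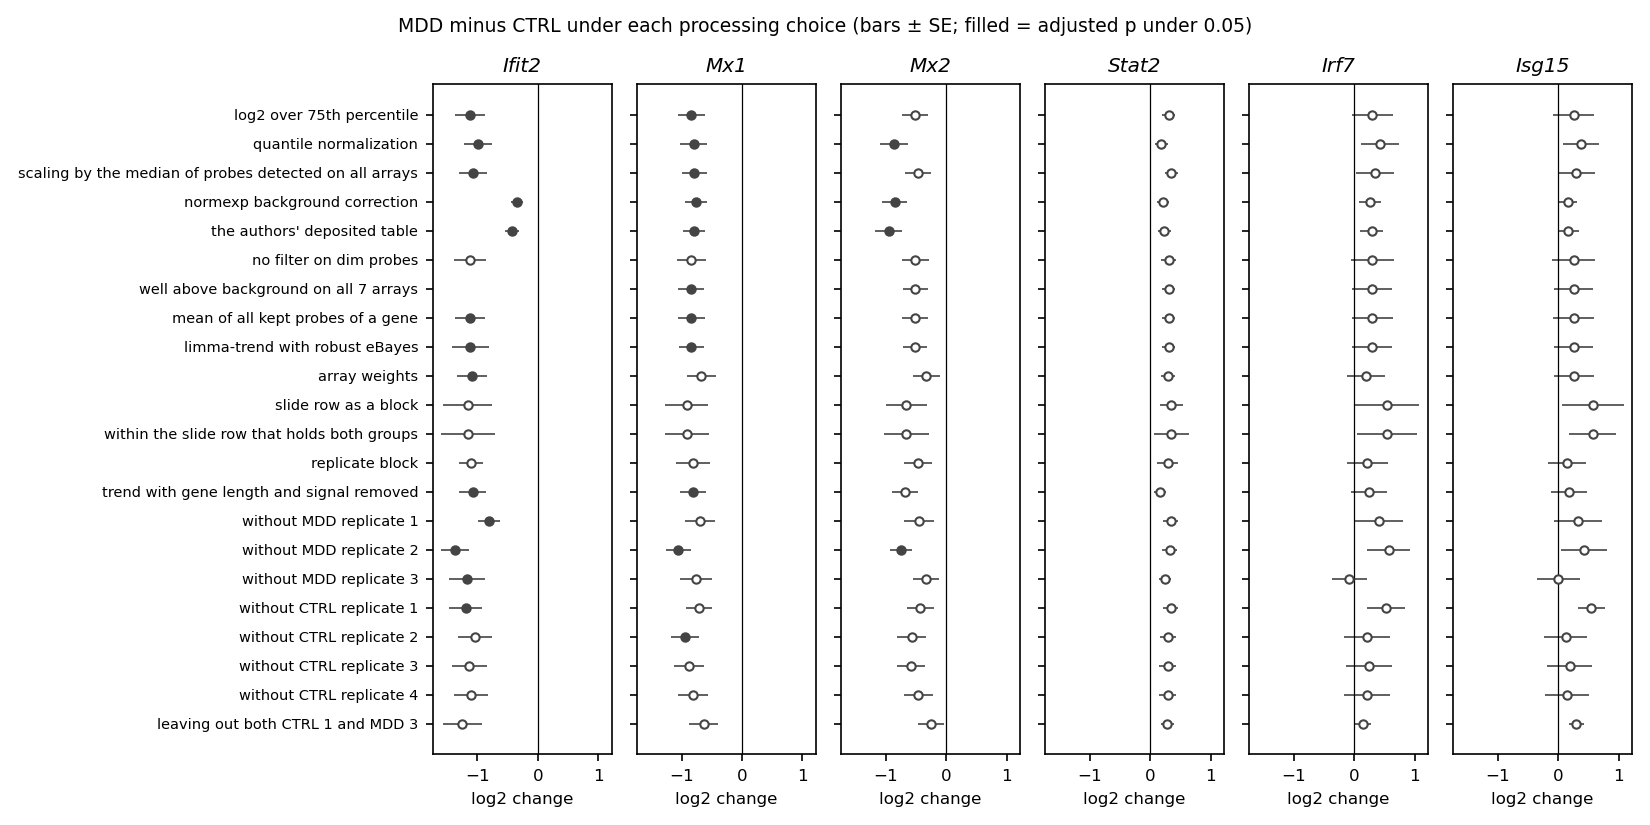
Points are the log2 difference, MDD minus CTRL, of 6 genes under each processing choice named at the left, with bars of ± 1 standard error and filled points where the adjusted p was under 0.05. Ifit2 and Mx1 stay below 0 throughout, and Stat2, Irf7 and Isg15 never pass. Mx2 passes with quantile normalization, normexp correction, the authors' deposited table and on leaving out MDD 2.

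The rest of the pathway was read through lists ordered by role, 92 genes tested in all, of which 10 were higher and 4 lower in MDD pups (15.2% called, beside 20.4% over everything tested). The median difference was 0.02. Groups did not overlap for 33 of the 92 (35.9%, beside 36.5%).

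Of the interferon ligands and receptors, 5 of 15 were tested and none passed. The smallest p belonged to Ifngr2, the second chain of the interferon gamma receptor, with 0.34 (SE 0.13, adjusted p 0.0896). Ifnar1, a chain of the type I receptor, differed by 0.12 (SE 0.13, adjusted p 0.501). Interferon gamma itself (Ifng) was not well above background on any array.

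Of the receptor kinases and the other STAT and IRF factors, 9 of 15 were tested, and their median difference was -0.25. The kinases Jak1 and Jak2, picked out after their values were seen, had differences of -0.38 each, with adjusted p of 0.0601 and 0.0702. Jak1 passes the signal of both interferon types, and Jak2 that of interferon gamma. Every MDD pup was below every CTRL pup for both kinases, and neither passed. Groups did not overlap for 4 of the 9 tested genes of this list (44.4%, beside 36.5% over everything tested).

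The sensors of foreign or misplaced nucleic acid and their adaptors gave 2 genes higher and 1 lower among 9 tested of 20. These are 22.2% higher and 11.1% lower, beside 12.7% and 7.72% over everything tested. Sting1, which relays the signal of cytosolic DNA, had -1.76, -1.80 and -1.64 in MDD pups, against -2.19, -2.24, -2.27 and -2.52 in CTRL pups, a rise of 0.57 (SE 0.12, 1.49-fold, adjusted p 0.0205). Myd88, the adaptor of most Toll-like receptors, rose by 0.56 (SE 0.14, adjusted p 0.0272). Tank, a scaffold of the kinases TBK1 and IKBKE, fell by 0.39 (SE 0.11, adjusted p 0.0407). Groups did not overlap for 5 of the 9 tested (55.6%, beside 36.5% over everything tested), these 3 among them. The Sting1 call was lost without CTRL 3 or CTRL 4 (adjusted p 0.0553 to 0.0614). The Myd88 call was lost without MDD 1 or without any single CTRL array (0.0524 to 0.0780), and the Tank call without any single array other than MDD 3 (0.0696 to 0.112). The RNA sensor Ifih1 was not well above background on any array.

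Negative regulators of interferon signalling gave 2 genes higher (11.8%, beside 12.7% over everything tested) and 0 lower (beside 7.72%) among 17 tested of 18. Both act on nucleic acid that would otherwise be sensed. Trex1, the main exonuclease that clears cytosolic DNA, had -1.26, -1.23 and -0.99 in MDD pups, against -1.77, -1.85, -1.76 and -1.97 in CTRL pups, a rise of 0.67 (SE 0.12, adjusted p 0.0132). Trex1 stayed called whichever single array was left out. Rnaseh2a, the catalytic subunit of the enzyme that removes RNA from RNA-DNA hybrids, rose by 0.71 (SE 0.18, adjusted p 0.0327), with MDD 3 at 1.57 above MDD 1 and 2 at 0.93 and 0.80, against 0.32 to 0.43 in CTRL pups. The Rnaseh2a call was lost without MDD 1 or without any single CTRL array (0.0505 to 0.0805). The list's median was -0.08.

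In the list around ISG15 conjugation, 5 of 7 genes were tested, with 1 higher and 2 lower. These are 20% and 40% of so short a list, beside 12.7% higher and 7.72% lower over everything tested. Ube2l6, the enzyme that carries ISG15 to its targets, had -2.47, -2.67 and -2.35 in MDD pups, against -3.35, -3.45, -3.43 and -3.43 in CTRL pups. The MDD values stood clear of a narrow CTRL range, with a rise of 0.92 (SE 0.12, 1.89-fold, adjusted p 0.00964), which stayed called whichever single array was left out. Herc3 fell by 0.85 (SE 0.17, adjusted p 0.0167) and Herc4 by 0.61 (SE 0.12, adjusted p 0.0141). Both are ubiquitin ligases of the HERC family, listed for their family and not as known ISG15 ligases, and both calls were lost without CTRL 4 (0.0547 for Herc3 and 0.0531 for Herc4). Isg15 itself did not pass, as given above.

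**Figure D3:**
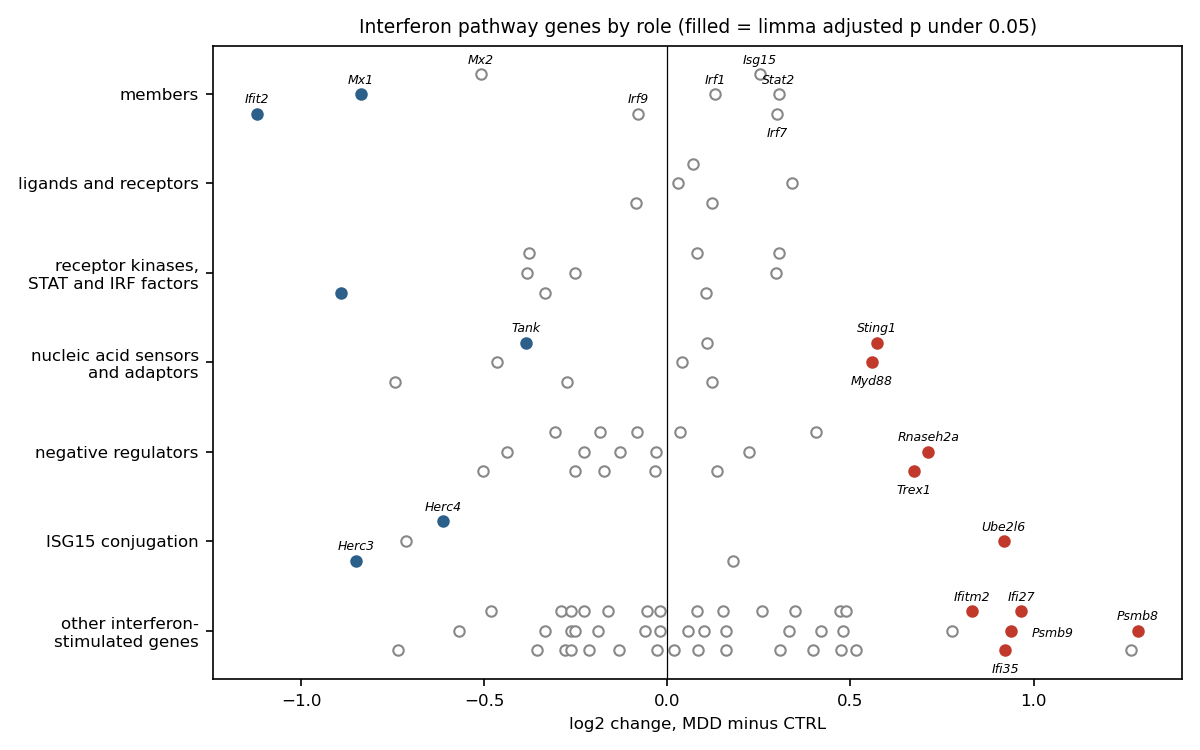
Each point is 1 tested gene, placed by its log2 difference, MDD minus CTRL, in the row of its role; the height within a row has no meaning. Filled points passed at an adjusted p under 0.05, red for higher and blue for lower in MDD, and are named outside the row of receptor kinases, as are all tested members of the top row. The row of other interferon-stimulated genes has 5 filled points on the right and none on the left.

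Of 68 other interferon-stimulated genes, 56 were on the array and 47 were tested. In MDD pups 5 were higher (10.6%, beside 12.7% over everything tested) and 0 lower (beside 7.72%), and the median difference was 0.08. Differences were positive for 26 and negative for 21. The 5 that rose were Psmb8, Psmb9, Ifi27, Ifi35 and Ifitm2. Groups did not overlap for 13 of the 47 (27.7%, beside 36.5% over everything tested), with MDD above CTRL for 9, the 5 called among them, and below for 4, none of which passed limma's adjusted p. The chemokines Cxcl9, Cxcl10 and Cxcl11 and the effector Ifit1 were among 7 genes not well above background on any array.

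Psmb8 and Psmb9 encode catalytic subunits of the immunoproteasome, which cuts peptides for antigen presentation and is induced most strongly by interferon gamma. Psmb8 had -3.30, -3.25 and -2.50 in MDD pups, against -4.40, -4.11, -4.34 and -4.36 in CTRL pups, a rise of 1.28 (SE 0.20, 2.44-fold, adjusted p 0.0105). Psmb9 had -2.65, -2.79 and -2.27 in MDD pups, against -3.51, -3.62, -3.27 and -3.66 in CTRL pups, a rise of 0.94 (SE 0.16, 1.92-fold, adjusted p 0.0114). The ranges of the groups were well apart for both genes. The peptide transporters Tap1 and Tap2, picked out after their values were seen, had differences of 0.35 and 0.40 and did not pass (adjusted p 0.629 and 0.552).

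Ifi27, a small mitochondrial protein induced by type I interferon, had 4.26, 4.18 and 4.67 in MDD pups, against 3.52, 3.51, 3.35 and 3.23 in CTRL pups, a rise of 0.97 (SE 0.15, 1.95-fold, adjusted p 0.0105). Psmb8, Psmb9 and Ifi27 stayed called whichever single array was left out. Ifi35, which binds the factor NMI, rose by 0.92 (SE 0.24, adjusted p 0.0313), and Ifitm2, a membrane protein that hinders virus entry, rose by 0.83 (SE 0.22, adjusted p 0.0334). For both, MDD 3 was the highest array, with -2.74 for Ifi35 and 1.38 for Ifitm2. Their calls were lost without MDD 1 or without any single CTRL array, with adjusted p between 0.0537 and 0.0797 for Ifi35 and between 0.0575 and 0.0792 for Ifitm2.

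Of the tested genes of this list with a promoter window, 27 held the core, with a median difference of 0.10, 3 higher and 0 lower. The other 13 had 2 higher and 0 lower, and their median was -0.06. These are counts only, and no test was made of the split.

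One array in each group stood high for many of these genes. CTRL 1 was the highest CTRL array for 26 of the 47 genes (55.3%), beside 37.3% of all those tested, and CTRL 4 for 2 of 47 (4.26%, beside 17.6%). MDD 3 was the highest MDD array for 26 of the 47 (55.3%), beside 45.8% of all those tested, and MDD 2 for 5 (10.6%, beside 30.3%). Without both CTRL 1 and MDD 3, chosen after the data were seen, Mx1 had -0.64 and Ifit2 -1.25, neither passed, and the whole table had 1393 calls.

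**Figure D4:**
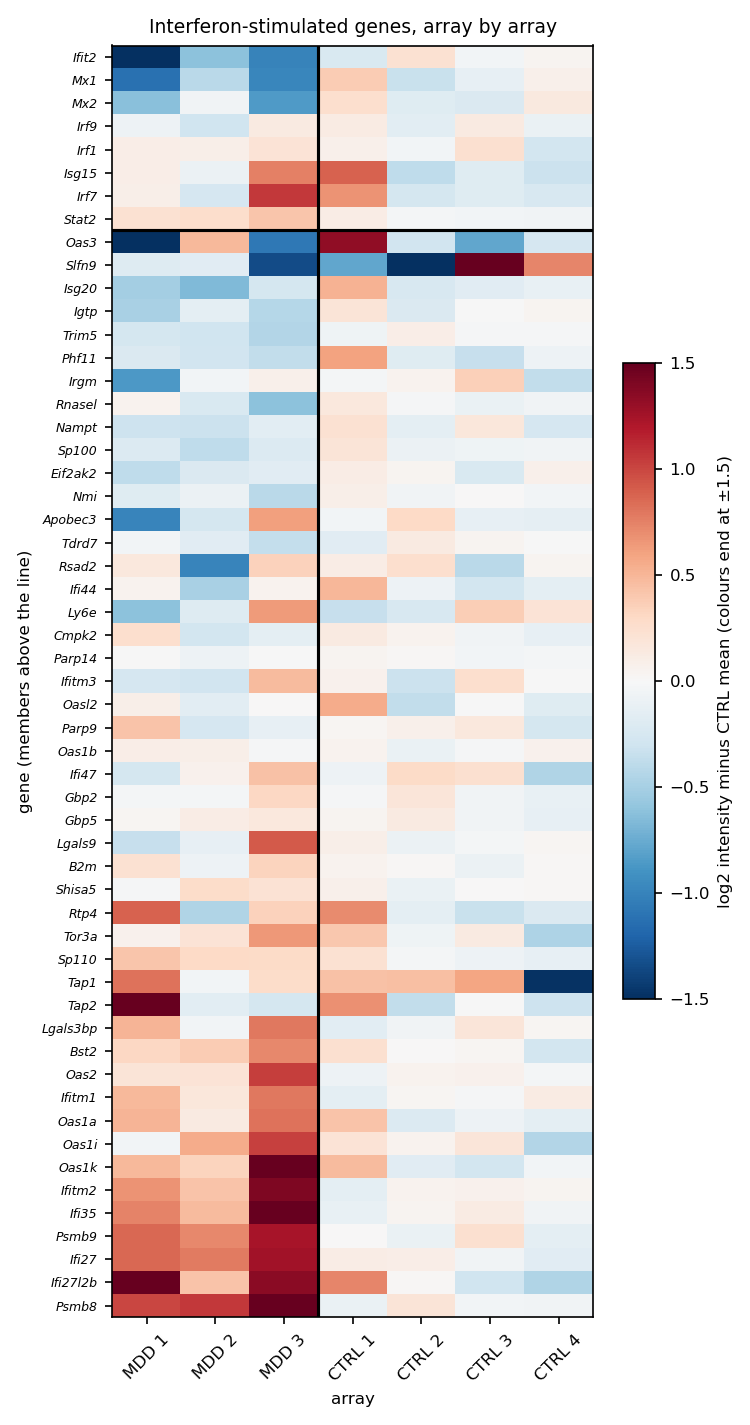
Rows are the 8 tested members above the line and 47 other interferon-stimulated genes below it, columns are the 7 arrays with MDD at the left, and colour is the log2 intensity minus the mean of the CTRL arrays, ending at ± 1.5. The lowest rows, down to Psmb8, are red on all 3 MDD arrays, Ifit2 and Mx1 at the top are blue on them, and Isg15 and Irf7 are red on MDD 3 and CTRL 1.

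Markers of microglia differed between the groups in the same comparison. Of 19 microglial markers tested, 8 were higher and 1 lower in MDD pups, beside 12.7% higher and 7.72% lower over everything tested, with a median of 0.58, and their summed level on a linear scale was 23.0 to 28.6 in MDD pups, against 18.2 to 19.1 in CTRL pups. Trem2, a microglial lipid receptor, rose by 1.13 (adjusted p 0.00964) and its adaptor Tyrobp by 0.99 (0.0111), while the chemokine receptor Cx3cr1 fell by 0.89 (0.0110). Of the monocyte, macrophage and neutrophil markers 14.3% were higher, and of the lymphocyte markers 16.7%, beside 12.7% over everything tested. Each of these shares is 1 gene, and 0 were lower in either list, beside 7.72%. Of monocyte, macrophage and neutrophil markers 1 of 7 tested was higher, the myeloid gene Plac8, with a summed level of 1.30 to 2.45 in MDD pups, against 1.33 to 1.53 in CTRL pups, and Ccr2, Mrc1 and Ly6c were not well above background on any array. Of lymphocyte markers 1 of 6 tested was higher, Cd8a, which was detected on 3 of 3 MDD arrays and 2 of 4 CTRL arrays. Cd8b and Cd4, with differences of -0.39 each, had every MDD value below every CTRL value and did not pass (adjusted p 0.0535 and 0.0708). Groups did not overlap for 3 of the 6 lymphocyte markers (50%, beside 36.5% over everything tested). The lymphocyte list had a summed level of 0.324 to 0.538 in MDD pups, against 0.342 to 0.413 in CTRL pups. The T and B cell markers Cd3e, Cd3g and Cd79b were not well above background on any array. The part of these cells in the changes of Psmb8, Psmb9, Ifi27, Ube2l6, Trex1, Mx1 and Ifit2 was not tested.

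The tissue carried its own markers. All 12 granule neuron markers and 9 of 10 Purkinje cell markers were measured. Markers of meninges and choroid plexus summed to 160 to 381 in MDD pups, against 129 to 182 in CTRL pups, and those of red blood cells to 167 to 504 in MDD pups, against 128 to 220 in CTRL pups, with no single marker of either list called. A summed level weighs the brightest probes of its list most, here and for the cell types above, so it does not stand for every marker. The part of meninges, choroid plexus and red blood cells in the differences was not tested.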

How the data were processed

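Total RNA of 7 cerebella was labelled with Cy3 and hybridised to Agilent rat arrays. The deposited scanner files hold linear intensity per spot and other flags per spot; per the file headers, the software was Feature Extraction, version 10.7.3.1. A table the authors deposited holds normalized linear intensity, its method not given in the sources used here; its columns name the group but not the pup.

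The processed intensity was scaled to the 75th percentile of each array and taken to log2. Control spots and outlier flags were left out and spots of a probe averaged. A probe was kept if at least 50% of its spots were well above background on 3 arrays (22255 of 30367), and the brightest kept probe stood for a gene. Names came from RefSeq accessions for 18355 probes. The test was limma (3.58.1, under R 4.3.3), two-sided, with Benjamini-Hochberg adjustment over 11966 named genes and 8025 unnamed probes. The fit was tested on simulated data. The number of arrays limits precision, between 74.1% and 79.6% of spots were well above background, and none were saturated.

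The members, lists and tests were chosen with earlier results of these data known. Genes were named by rule: all members, up to 6 called genes of each pathway list (or the 2 with the smallest p), up to 3 called markers of each cell type (or 1), and the 5 genes most like the members. The normexp alternative (offset 50) used the median spot signal and median local background, then quantile normalization. Some genes of the lists are counted but not reported by name here.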

Additional observations from a re-analysis of the deposited data

Results flagged for a closer look

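Among the 24 members and named pathway genes, 5 had a CTRL array that stood away from the other 3 by most of the group's range. Chance gives such a gap in about 1 of 20 groups, and it was seen in 1173 of 19988 over the whole table (5.87%), with CTRL 1 the array apart in 559 of them. CTRL 1 was high for Irf7, at -3.74 with the others between -4.67 and -4.59. It was high for Isg15, at -3.71 with the others between -4.97 and -4.78, and for Stat2, at 1.37 with the others between 1.21 and 1.23. CTRL 1 was low for Ifitm2, at -0.17 with the others between 0.02 and 0.04. CTRL 4 was high for Tank, at -1.34 with the others between -1.49 and -1.48. The MDD group of 3 arrays is too small for this rule.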

How the results depend on the processing

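Of 527 values of the 24 genes under alternatives, 519 kept their direction. The reversals were Irf1 with the mean of its probes (-0.15) and with a trend on gene length and signal removed (-0.0369); Irf7 on leaving out 1 array (-0.0800 without MDD 3 to 0.574 without MDD 2); and Irf9 with quantile normalization (0.0146), normexp (0.000321), the slide row as a block or within it (0.0170 each) and on leaving out 1 array (-0.185 without MDD 3 to 0.0300 without MDD 2). The causes were not tested. The 2 members called, 14 pathway genes and 4081 in all became 0, 7 and 1593 with no filter on dim probes, where more probes are tested, and 0, 0 and 1 with the slide row as a block or 0, 0 and 7 within it, where 1 CTRL array meets the MDD arrays. Members called were 1 on requiring all 7 arrays, which drops Ifit2, and 1 with array weights, with 2599 in all. Removing the trend left 1349 of the 11965 named genes of known length, and the same genes without removal gave 2263. Leaving out 1 array gave 0 to 3 members, 5 to 19 pathway genes and 1022 to 5234 in all. Without both CTRL 1 and MDD 3 the counts were 0, 6 and 1393.

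Replicate numbers did not pair the pups (correlations of same-numbered deviations 0.09, -0.18 and 0.22). With the replicate block 0 members, 0 pathway genes and 0 in all were called, and the same 6 arrays without the block gave 0, 5 and 1022.

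Limits: with 3 and 4 pups of unknown litters, no measure of RNA integrity and a dim signal for Ifit2, Ifit3, Irf7 and Isg15, small changes were not detectable.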

Other observations

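The 5 named genes whose levels over the 7 arrays were most like the mean standardized level of the 8 tested members were Map4k1, Epm2aip1, Bdnf, Ldb2 and Mixl1, with Pearson correlations from 0.963 to 0.971 among 11950 genes. Bdnf encodes a neurotrophin and Map4k1 a kinase of blood cells. After each group was centred on its mean the correlations were 0.964 to 0.986, so the likeness lies in differences between arrays of a group. Whether these come from the pups or from the arrays was not tested. None of the 5 was called, and their differences lay between -0.22 and -0.02. The 7 arrays share 1 slide and their scaling, and many genes compete for the top place over so few points.

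Markers of the cerebellum's own cells were read as well. Beside the counts below, 12.7% of everything tested were higher and 7.72% lower in MDD pups. Of 12 granule neuron markers, 0 were higher and 3 lower in MDD pups, among them Gabra6, a GABA receptor subunit of these cells, which fell by 0.74 (SE 0.18, adjusted p 0.0267). Of 9 Purkinje cell markers tested, 2 were higher and 2 lower. The glutamate transporter gene Slc1a6 rose by 0.74 (adjusted p 0.0299) and the calcium-binding protein gene Calb1 fell by 0.57 (0.0329). Of 10 markers of astrocytes and Bergmann glia, 1 was higher, Aldh1l1, by 0.51 (0.0377), and of 8 oligodendrocyte markers 1 was lower, the myelin gene Mobp, which fell by 0.57 (0.0270). Among 9 endothelial markers 1 was higher, the tight junction gene Cldn5, by 0.68 (0.0180).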
